A study of Mus musculus with 12 samples.

Results

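The 10 genes described here set which fatty acid chains enter cell membranes or suppress ferroptosis without GPX4, and all 10 were found by symbol in a table of 24502 genes. They were Acsl3, Acsl4 and Acsl5, Lpcat3, the desaturase genes Scd1, Scd2, Fads1 and Fads2, and the suppressor genes Aifm2 and Gch1. They were chosen by name, with earlier results of these data known. RNA had been sequenced from sorted mouse regulatory T cells (Treg) in 4 groups of 3 libraries. Gpx4-deficient cells came from Foxp3CreGpx4fl/fl mice, in which the promoter of the regulatory T cell gene Foxp3 drives the Cre recombinase that cuts the loxP-flanked Gpx4 gene. They were taken after 4 h of stimulation with anti-CD3 and anti-CD28 bound to the plate (5 µg/ml) or unstimulated. Wild-type cells, labelled only WT, were taken in the same 2 states. All mice were 11 weeks old, and 600 ng of RNA went into each stranded mRNA library. Whether the wild-type mice carried Cre, whether the unstimulated cells had been cultured, and whether the libraries of a group came from separate animals is not stated by the labels. The p-values measure the spread between libraries, and that spread may be technical.

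Ferroptosis is a form of cell death in which polyunsaturated chains of membrane phospholipids are oxidised in the presence of iron. GPX4 reduces the resulting lipid hydroperoxides. Long-chain acyl-CoA synthetases (the ACSL enzymes) activate fatty acids, LPCAT3 inserts polyunsaturated chains into lysophospholipids, and desaturases set how many double bonds the available chains hold. FSP1, the product of Aifm2, and GTP cyclohydrolase, the product of Gch1, feed lipid-soluble antioxidants that act without GPX4. In T cells, receptor signals are known to switch on lipid synthesis and membrane growth.

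The libraries held between 24629230 and 31879267 expected counts, the estimated read numbers that RSEM gives per gene. Gpx4 stood at 3.34, 9.22 and 8.52 CPM in stimulated Gpx4-deficient cells against 107, 82.8 and 69.2 CPM in stimulated wild-type cells. It stood at 4.95, 7.30 and 12.3 CPM in unstimulated Gpx4-deficient cells against 147, 172 and 142 CPM in unstimulated wild-type cells. CPM are counts scaled to a common library size. All 7 genes listed as regulatory T cell markers (Foxp3, Il2ra, Ctla4, Ikzf2, Tnfrsf18, Cd4 and Cd3e) were present in every group. Their sum ran from 6660 to 7600 CPM in stimulated Gpx4-deficient and from 6350 to 6800 CPM in stimulated wild-type cells. In unstimulated cells it ran from 3000 to 3200 CPM (Gpx4-deficient) and from 3090 to 3160 CPM (wild type). Foxp3 was a small part of that sum. Foxp3 itself stood at 47.8, 75.8 and 67.9 CPM in stimulated Gpx4-deficient, 35.8, 43.5 and 33.7 CPM in stimulated wild-type, 35.1, 36.7 and 22.3 CPM in unstimulated Gpx4-deficient and 20.6, 23.8 and 26.8 CPM in unstimulated wild-type cells. The stimulated Gpx4-deficient libraries stood apart from the rest. Among the 8601 tested genes that averaged at least 10 CPM there, 6.69% had a library under 1 CPM. The same share was 0.213% of 8441 genes in stimulated wild-type, 0.641% of 8733 in unstimulated Gpx4-deficient and 0.0115% of 8704 in unstimulated wild-type cells. Mitochondrially encoded genes took 3.19 ± 0.467% of counts in stimulated Gpx4-deficient cells, against 1.27 ± 0.0972%, 1.79 ± 0.129% and 1.32 ± 0.0907% in the other groups in the same order (SD, n = 3 each). The part of these differences in the results that follow was not tested. In bulk RNA, fewer cells of one kind and less RNA per cell cannot be told apart.

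The calls among these genes came with stimulation, and edgeR made none between the genotypes. Acsl4 rose and Scd2 fell with stimulation in both genotypes, Gch1 rose in wild-type cells, and Lpcat3 rose in Gpx4-deficient cells. In stimulated against unstimulated cells, 3 of the 8 members that passed the filter on low counts were called in Gpx4-deficient cells (2 higher, 1 lower), where 15.3% of all 14827 tested genes were called (7.45% higher, 7.83% lower), and 3 of 8 in wild-type cells (2 higher, 1 lower), where 11.5% were (6.12% higher, 5.41% lower). Between the genotypes 0 of 8 were called in either state by edgeR, against a background of 2.27% in stimulated and 0.0674% in unstimulated cells. At an unadjusted p under 0.05 there was 1 member in each state, Scd2 with stimulation and Acsl5 without. DESeq2 called 1 member (Scd2) with stimulation and 0 without, and limma-voom called 0 in both. The test of a difference in response between the genotypes called 0 of 8 (background 0.202%), with 1 (Scd2) at an unadjusted p under 0.05 and 0 by DESeq2 and limma-voom. A call is a Benjamini-Hochberg adjusted p under 0.05 over all tested genes, from the edgeR quasi-likelihood test. Scd1 and Fads2 had too few counts to be tested.

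**Figure D1:**
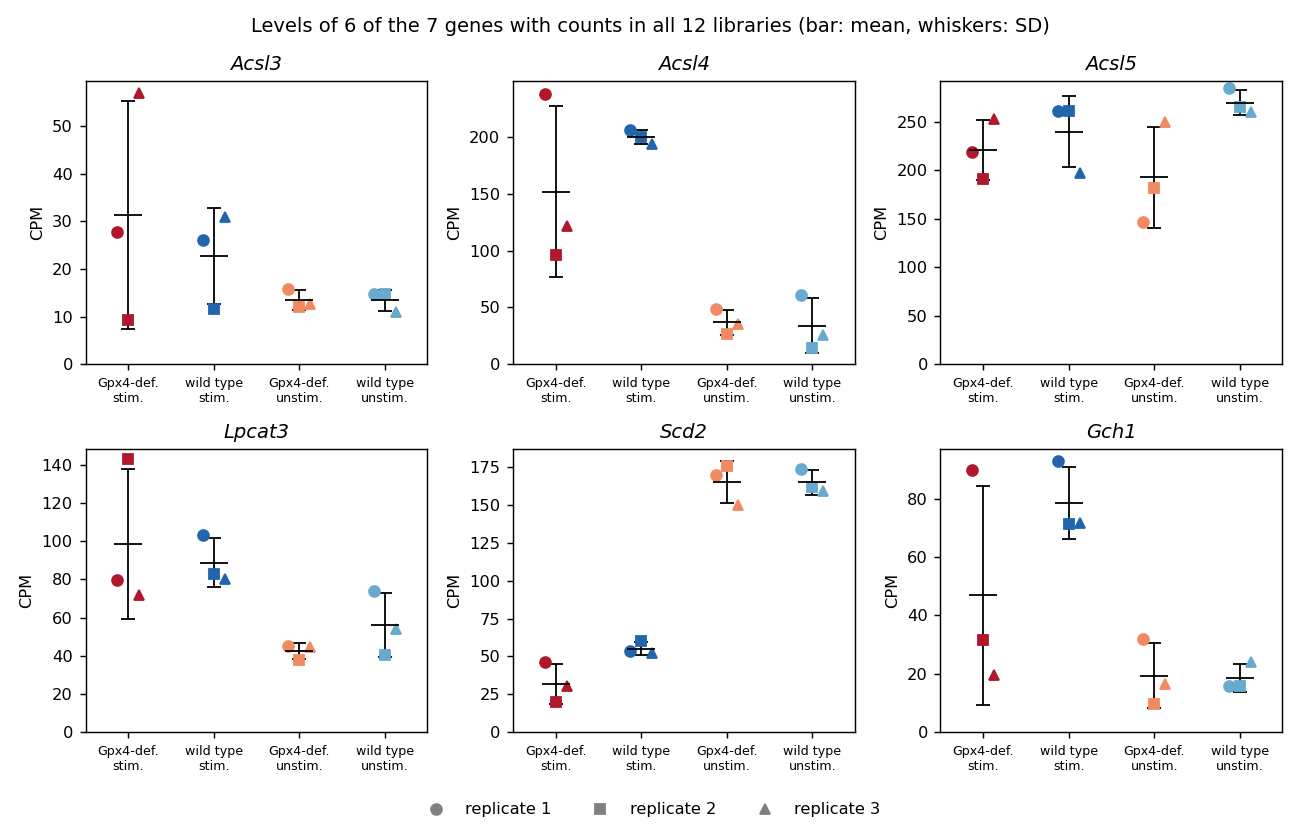
Level in CPM (linear axis from 0) of Acsl3, Acsl4, Acsl5, Lpcat3, Scd2 and Gch1, 6 of the 7 genes with counts in all 12 libraries (Fads1 is plotted as counts), by group; points are libraries, horizontal bars the means and whiskers the SD (n = 3). Acsl4 lies between 96.5 and 238 CPM in the 6 stimulated libraries and between 14.6 and 61.1 CPM in the 6 unstimulated ones, and Scd2 between 19.6 and 60.2 CPM and between 149.5 and 176 CPM.

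Acsl4 encodes the synthetase that prefers arachidonic and adrenic acid, the polyunsaturated chains whose esters are substrates of ferroptosis. The gene (ENSMUSG00000031278.12) lies on chromosome X from 142317993 to 142390535 on the minus strand of GRCm38. Its level was 238, 96.5 and 122 CPM in stimulated Gpx4-deficient cells and 206, 200.1 and 194 CPM in stimulated wild-type cells. Unstimulated cells had 48.6, 26.5 and 35.6 CPM (Gpx4-deficient) and 61.1, 14.6 and 25.7 CPM (wild type). Every stimulated library was therefore above every unstimulated one, while the genotypes overlapped in both states. Such separation by stimulation held for 29.8% of all tested genes in Gpx4-deficient and 42% in wild-type cells. The log2 fold change with stimulation was 2.04 in Gpx4-deficient cells (SE 0.48, adjusted p = 0.0136) and 2.56 in wild-type cells (SE 0.49, adjusted p = 0.00434). The call in Gpx4-deficient cells was lost without unstimulated Gpx4-deficient replicate 2 (adjusted p = 0.0566) or replicate 3 (0.0502). The stimulated wild-type libraries spanned 1.06-fold, whereas the stimulated Gpx4-deficient ones spanned 2.46-fold. The difference between the genotypes in the response, -0.52, had a 95% interval from -1.96 to 0.92 and was not called (adjusted p = 0.912).

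Acsl3, whose product activates monounsaturated chains such as oleate and is known to protect cultured cells from ferroptosis, averaged 3.08 ± 0.489 CPM per kilobase in unstimulated wild-type cells, where Acsl4 averaged 6.26 ± 4.5 CPM per kilobase (SD, n = 3). The gene (ENSMUSG00000032883.15) is on chromosome 1 from 78657825 to 78707743, plus strand. Stimulated Gpx4-deficient libraries had 27.7, 9.37 and 57.0 CPM, and stimulated wild-type ones 26.0, 11.5 and 30.9 CPM. The unstimulated libraries lay close together, at 15.9, 12.0 and 12.6 CPM in Gpx4-deficient and 14.7, 14.7 and 11.0 CPM in wild-type cells. In each genotype 2 of 3 stimulated libraries were above all unstimulated ones, and replicate 2 was not. Acsl3 was not called with stimulation in Gpx4-deficient cells (log2 fold change 1.21, SE 0.60, adjusted p = 0.197) or in wild-type cells (0.76, SE 0.59, adjusted p = 0.527). Without stimulated Gpx4-deficient replicate 2 it was called in Gpx4-deficient cells (1.65, adjusted p = 0.0395). Of the 75-base stretches of its transcripts, 3% also occur in Utp14b, which shares 244 exonic bases on the same strand, so a few reads cannot be assigned to one gene.

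Acsl5, a synthetase of mitochondria and endoplasmic reticulum known for feeding chains into storage and oxidation, had the narrowest spread of the tested members. The gene (ENSMUSG00000024981.6) is on chromosome 19 from 55251938 to 55297720, plus strand. It stood at 219, 191 and 253 CPM in stimulated Gpx4-deficient cells and 261, 261 and 197 CPM in stimulated wild-type cells. Without stimulation it stood at 147, 182 and 249.7 CPM in Gpx4-deficient cells and 285, 265 and 259.8 CPM in wild-type cells. The unstimulated genotypes did not overlap, as was so for 18.3% of all tested genes in that comparison. The log2 fold change of -0.48 had a 95% interval from -0.90 to -0.06, with an unadjusted p of 0.0276 and an adjusted p of 0.823, so it was not called. Its response to stimulation was 0.20 in Gpx4-deficient cells (95% interval -0.22 to 0.62) and -0.17 in wild-type cells (-0.59 to 0.25). Zdhhc6 on the opposite strand shares 404 exonic bases with Acsl5, and no source used here says whether the counting used strand.

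Levels of different genes can be compared only per length, so CPM were divided by the exonic length of each gene in kilobases. On that scale Acsl5 made up 57.6 ± 9.62% of the summed level of Acsl3, Acsl4 and Acsl5 in stimulated Gpx4-deficient cells and 53.7 ± 4.58% in stimulated wild-type cells. In unstimulated cells it made up 79.3 ± 7.60% (Gpx4-deficient) and 86.0 ± 5.35% (wild type, SD, n = 3 each). The share of Acsl4 was 34.0 ± 10.7% and 40.5 ± 2.08% in stimulated Gpx4-deficient and wild-type cells, and 14.2 ± 5.80% and 9.27 ± 5.66% in the unstimulated ones. Each stimulated library had a larger Acsl4 share than each unstimulated one, with 25.7% the lowest stimulated and 20.9% the highest unstimulated value. Acsl3 held 8.39 ± 5.83% and 5.82 ± 2.84% with stimulation and 6.47 ± 1.89% and 4.77 ± 0.726% without, in Gpx4-deficient and wild-type cells each time. These shares describe the 3 genes and carry no test.

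**Figure D2:**
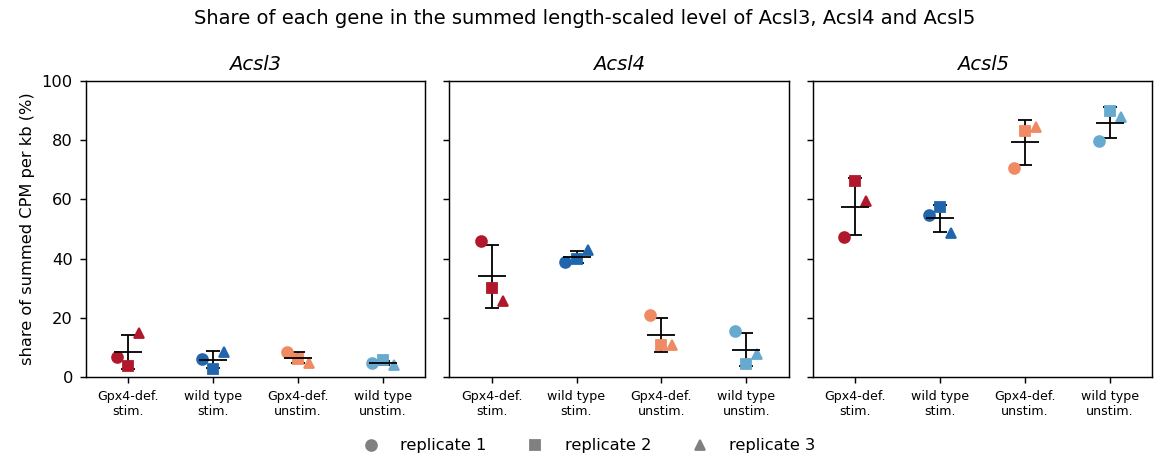
Share of Acsl3, Acsl4 and Acsl5 in their summed CPM per kilobase of exon (percent), by group; points are libraries, bars the means and whiskers the SD (n = 3). Acsl4 ran from 25.7% to 46.1% in the stimulated libraries and from 4.46% to 20.9% in the unstimulated ones.

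Lpcat3 encodes the acyltransferase of the endoplasmic reticulum that loads arachidonate and linoleate onto lysophospholipids. It lies on chromosome 6 from 124663027 to 124704418, plus strand (ENSMUSG00000004270.13). Its level was 79.9, 143 and 72.0 CPM in stimulated Gpx4-deficient cells against 45.1, 37.9 and 44.5 CPM in unstimulated Gpx4-deficient cells. The log2 fold change was 1.21 (SE 0.30, adjusted p = 0.0168), and it lost its call without unstimulated Gpx4-deficient replicate 2 (adjusted p = 0.0611) or when the fit held those 2 groups only (0.0771). Stimulated wild-type cells had 103, 82.8 and 80.2 CPM against 73.7, 40.3 and 54.0 CPM in unstimulated wild-type cells. Those groups did not overlap either, as was so for 42% of all tested genes in that comparison, but Lpcat3 was not called there (0.66, SE 0.29, adjusted p = 0.197). The genotypes overlapped in both states, and the difference in response, 0.55, had a 95% interval from -0.36 to 1.45. Emg1 on the opposite strand shares 334 exonic bases with Lpcat3.

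Acsl4, Lpcat3 and Gch1 were the members that rose with stimulation, and the sequences around their start sites are shown for that reason. They are RefSeq promoter windows of GRCm38.p6, from 250 bases before to 50 bases after the start site. Windows were found for 7 of the 10 members. Capitals mark CCAAT or its reverse complement in Lpcat3 and Gch1, and the reverse complement of GGAAAA, the core letters that NFAT factors of T cell receptor signalling bind, in Acsl4.
Acsl4, chrX:142390486-142390785, minus strand: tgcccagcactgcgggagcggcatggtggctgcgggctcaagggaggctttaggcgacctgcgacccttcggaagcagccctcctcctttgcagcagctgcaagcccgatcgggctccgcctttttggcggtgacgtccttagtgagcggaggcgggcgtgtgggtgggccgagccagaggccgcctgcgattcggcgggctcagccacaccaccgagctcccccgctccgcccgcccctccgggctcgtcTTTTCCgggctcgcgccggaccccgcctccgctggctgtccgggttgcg
Lpcat3, chr6:124662854-124663153 (plus strand): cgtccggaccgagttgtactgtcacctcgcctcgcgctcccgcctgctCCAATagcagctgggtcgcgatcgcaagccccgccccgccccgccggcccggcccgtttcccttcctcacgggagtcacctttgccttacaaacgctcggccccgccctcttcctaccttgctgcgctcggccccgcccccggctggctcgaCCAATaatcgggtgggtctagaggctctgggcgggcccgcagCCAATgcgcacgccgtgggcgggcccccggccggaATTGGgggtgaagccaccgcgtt
Gch1, chr14:47189364-47189663, minus strand: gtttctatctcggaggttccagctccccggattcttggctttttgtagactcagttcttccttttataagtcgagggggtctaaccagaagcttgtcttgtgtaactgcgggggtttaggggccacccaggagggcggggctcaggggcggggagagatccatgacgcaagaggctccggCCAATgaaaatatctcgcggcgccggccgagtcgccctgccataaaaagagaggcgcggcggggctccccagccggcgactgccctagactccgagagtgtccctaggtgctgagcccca

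On both strands, CCAAT occurred in 4 of the 7 member windows (Acsl3, Acsl5, Gch1 and Lpcat3) and in 37.4% of the 32851 windows of all genes. GGAAAA occurred in 2 (Acsl4 and Acsl5) and in 23.4% of all. No member window held TCACNCCAC, a form bound by SREBP factors (1.24% of all windows), the antioxidant response core TGACNNNGC (12.4%), the AP-1 letters TGANTCA (7.81%), TGACGTCA (1.79%), CACGTG (7.15%) or the NF-kB motif (0.411%). GC content was 71.7% in the Acsl4 window, 71.0% in that of Lpcat3 and 60.3% in that of Gch1. The matches describe letters in these windows and carry no test.

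Stearoyl-CoA desaturases make oleate and palmitoleate, the monounsaturated chains that do not propagate lipid peroxidation. Scd2, known as the main form in brain, was far more abundant here than Scd1, at 30.2 against 0.169 CPM per kilobase of exon in unstimulated wild-type cells. It lies on chromosome 19 from 44293674 to 44306864, plus strand (ENSMUSG00000025203.6). Scd2 stood at 46.1, 19.6 and 30.4 CPM in stimulated Gpx4-deficient cells and 53.4, 60.2 and 52.1 CPM in stimulated wild-type cells. Unstimulated cells had 170.1, 176 and 149.5 CPM (Gpx4-deficient) and 174, 162 and 159 CPM (wild type). The 6 unstimulated libraries were thus all far above the 6 stimulated ones, and among the stimulated libraries every Gpx4-deficient one was below every wild-type one.

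The fall of Scd2 with stimulation had a log2 fold change of -2.37 in Gpx4-deficient cells (SE 0.26, adjusted p = 8.45e-05) and -1.58 in wild-type cells (SE 0.25, adjusted p = 0.00138). Both calls held in all 20 alternative fits. In linear terms the stimulated level was 0.194 of the unstimulated one in Gpx4-deficient cells and 0.335 in wild-type cells. Between the genotypes, Scd2 averaged 32 ± 13.3 CPM in stimulated Gpx4-deficient and 55.2 ± 4.33 CPM in stimulated wild-type cells (SD, n = 3 each). The log2 fold change was -0.79 (SE 0.25, 95% interval -1.34 to -0.24), with an adjusted p of 0.135, where groups failed to overlap for 20.1% of all tested genes. DESeq2 called it (-0.75, adjusted p = 0.0449), and edgeR did without stimulated Gpx4-deficient replicate 1 (-1.10, adjusted p = 0.0133). Without stimulation the genotypes averaged 165 ± 14.0 CPM (Gpx4-deficient) and 165 ± 8.24 CPM (wild type), and the interval of the log2 difference ran from -0.54 to 0.55. The response differed between the genotypes by -0.79 (SE 0.35, unadjusted p = 0.0458, adjusted p = 0.563), which was not called. Markers of stromal and epithelial cells (7 of 10 listed were in the table) also summed to less with stimulation, from 52.9 to 93.8 CPM in stimulated Gpx4-deficient and from 91.9 to 108 CPM in stimulated wild-type libraries, against 178 to 213 and 177 to 193 CPM in the unstimulated ones. Pdgfrb and Cdh5 were at 0 in every group but unstimulated wild type, while Col1a1 was at 0 in stimulated Gpx4-deficient cells as well. Monocyte and macrophage markers (7 of 7 in the table) likewise summed to less with stimulation, from 65.1 to 111 CPM in stimulated Gpx4-deficient and from 25.8 to 63.2 CPM in stimulated wild-type libraries, against 115 to 158 and 138 to 251 CPM in the unstimulated ones. Fcgr1 was at 0 in both stimulated groups. In wild-type cells 3 further sums were lower with stimulation without overlap, those of B cell (15.4 to 24 against 40.2 to 52.8 CPM), CD8 T and NK cell (10.1 to 19.8 against 24.1 to 36.1 CPM) and erythroid and platelet markers (8.52 to 23.4 against 44.7 to 62.9 CPM). That of dendritic cell markers was higher (24 to 42.6 against 4.95 to 20.6 CPM). In Gpx4-deficient cells these 4 sums overlapped between the states. Between the stimulated genotypes, the monocyte and macrophage sum was higher in Gpx4-deficient cells without overlap. So was the erythroid and platelet sum (33.1 to 54.1 against 8.52 to 23.4 CPM). In unstimulated Gpx4-deficient cells the neutrophil sum was lower without overlap (4.95 to 11.6 against 22 to 66 CPM). The erythroid and platelet sum was lower there too (25.6 to 39.3 against 44.7 to 62.9 CPM). Other marker sums overlapped between the genotypes. The part of all these markers in the fall of Scd2, in the other changes with stimulation and in the genotype differences was not tested. Of the 75-base stretches of its transcripts, 1.78% also occur in Scd1, Scd3 or Scd4.

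Scd1, the liver and fat isoform (chromosome 19, 44394455 to 44407879, minus strand), was all but absent. All 3 stimulated Gpx4-deficient libraries had 0 counts, which allows up to 3 counts or, at most, 0.113 CPM in a library, and the stimulated wild-type libraries had 1, 0 and 0. Unstimulated Gpx4-deficient libraries had 2, 2 and 54 counts, and unstimulated wild-type ones 1, 0 and 62.11. Replicate 3 thus held nearly all Scd1 counts in each unstimulated group. Of the adipocyte markers in the table (4 of 7 listed), Cidec and Lep had 0 counts in both unstimulated groups, where the 4 summed to between 0.0351 and 1.66 CPM in unstimulated Gpx4-deficient and between 0.747 and 1.37 CPM in unstimulated wild-type libraries. The limit of 3 counts covers counting error only.

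Fads1 and Fads2 encode the front-end desaturases that turn linoleate into arachidonate. They lie close together on chromosome 19, Fads1 from 10182888 to 10196877 on the plus strand and Fads2 from 10062765 to 10101746 on the minus strand. Fads1 stood at 21.1, 0.123 and 61.5 CPM in stimulated Gpx4-deficient cells and 25.4, 16.2 and 8.57 CPM in stimulated wild-type cells. In unstimulated cells it stood at 28.4, 13.6 and 22.3 CPM (Gpx4-deficient) and 17.8, 38.3 and 33.8 CPM (wild type). The lowest and the highest of the 12 values both came from stimulated Gpx4-deficient cells, replicate 2 with 4 counts and replicate 3 with 1632, a 499-fold range within one group. In that group 20.8% of genes that averaged at least 10 CPM spanned more than 4-fold, against 2.48% in stimulated wild-type cells. Fads1 was called in no comparison, and the 95% interval of its genotype difference ran from -1.79 to 3.23 (log2) with stimulation and from -2.99 to 2.02 without.

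Fads2, which catalyses the first and rate-limiting desaturation, was near absence while Fads1 was not. Stimulated Gpx4-deficient libraries had 0 counts in all 3, and stimulated wild-type libraries had 0, 3 and 0. Unstimulated Gpx4-deficient libraries had 0, 4 and 0, and unstimulated wild-type libraries 18, 0 and 0. At most 1 library of a group thus held any Fads2 count. With mean levels per kilobase of 0.0704 CPM for Fads2 and 6.23 CPM for Fads1 in unstimulated wild-type cells, the pair was far from equal.

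**Figure D3:**
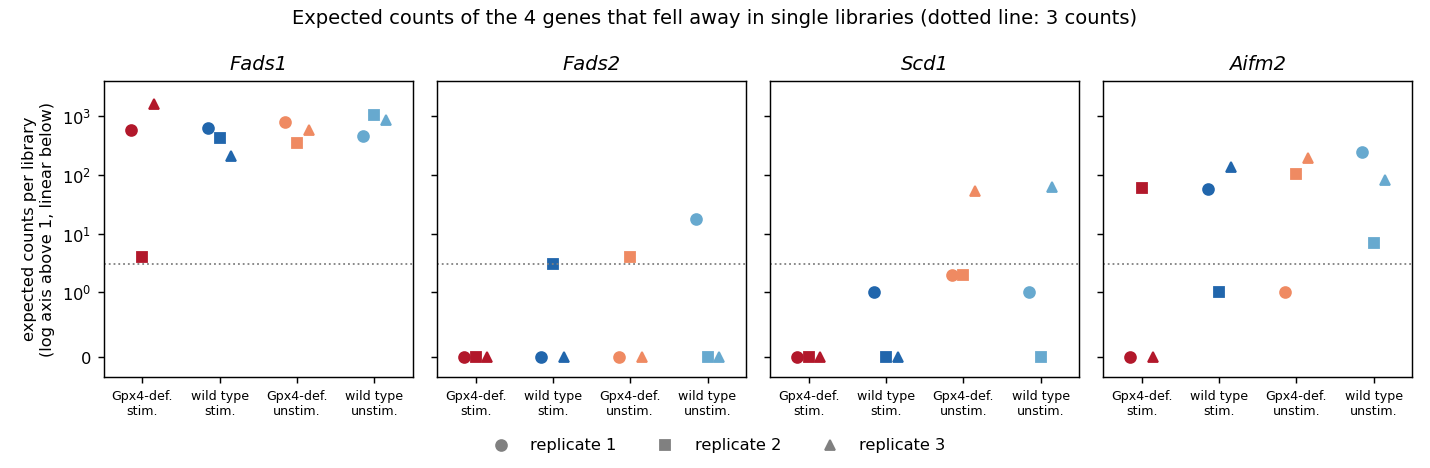
Expected counts per library (log axis above 1, linear below) of Fads1, Fads2, Scd1 and Aifm2, by group; points are libraries and the dotted line marks 3 counts. Fads1 has at least 212 counts in every library except stimulated Gpx4-deficient replicate 2, which has 4, and Aifm2 runs from 0 to 247.

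Aifm2 encodes FSP1, the oxidoreductase that regenerates the reduced forms of coenzyme Q and vitamin K at membranes. It lies on chromosome 10 from 61715263 to 61739260, plus strand (ENSMUSG00000020085.15). Stimulated Gpx4-deficient libraries had 0, 59 and 0 counts, and stimulated wild-type libraries 58, 1 and 137. Unstimulated libraries had 1, 102 and 196 counts in Gpx4-deficient and 247, 7 and 81 in wild-type cells. Every group held both a library under 10 counts and one above 50. In CPM the means were 0.606 ± 1.05 and 2.64 ± 2.76 in stimulated Gpx4-deficient and wild-type cells, and 3.78 ± 3.68 and 4.33 ± 4.75 in the unstimulated ones (SD, n = 3 each). The log2 fold change between the genotypes was -2.11 with stimulation (95% interval -7.13 to 2.91, adjusted p = 0.698) and -0.20 without (-5.01 to 4.62, adjusted p = 1). These intervals are too wide to show either a change or its absence at this depth. Its dispersion of 2.98, edgeR's measure of spread between libraries, exceeded that of 88.1% of tested genes, against 0.858 and 64.4% for Fads1 and 0.035 and 8.05% for Acsl5. H2afy2 on the opposite strand shares 233 exonic bases with Aifm2, and whether the counting used strand is not known here.

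Gch1 encodes GTP cyclohydrolase, the first and rate-limiting enzyme of tetrahydrobiopterin synthesis, and lies on chromosome 14 from 47153895 to 47189413, minus strand (ENSMUSG00000037580.10). Stimulated Gpx4-deficient libraries had 89.7, 31.4 and 19.7 CPM, and stimulated wild-type libraries 92.8, 71.2 and 71.6 CPM. The unstimulated libraries had 31.8, 9.79 and 16.6 CPM (Gpx4-deficient) and 15.7, 15.9 and 24.0 CPM (wild type). Gch1 rose with stimulation in wild-type cells, where the states did not overlap (log2 fold change 2.08, SE 0.56, adjusted p = 0.0320). That call was lost without any 1 of the 6 wild-type libraries, with adjusted p between 0.0683 and 0.131. In Gpx4-deficient cells the states overlapped and Gch1 was not called (1.27, SE 0.55, adjusted p = 0.145). Without stimulated replicate 3 and unstimulated replicate 1, an alternative chosen after seeing the data, it was called in Gpx4-deficient cells as well (2.26, adjusted p = 0.0132). The difference in response was -0.81 with an interval from -2.48 to 0.86, and the genotype difference in stimulated cells was -0.74 (-1.93 to 0.44).

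**Figure D4:**
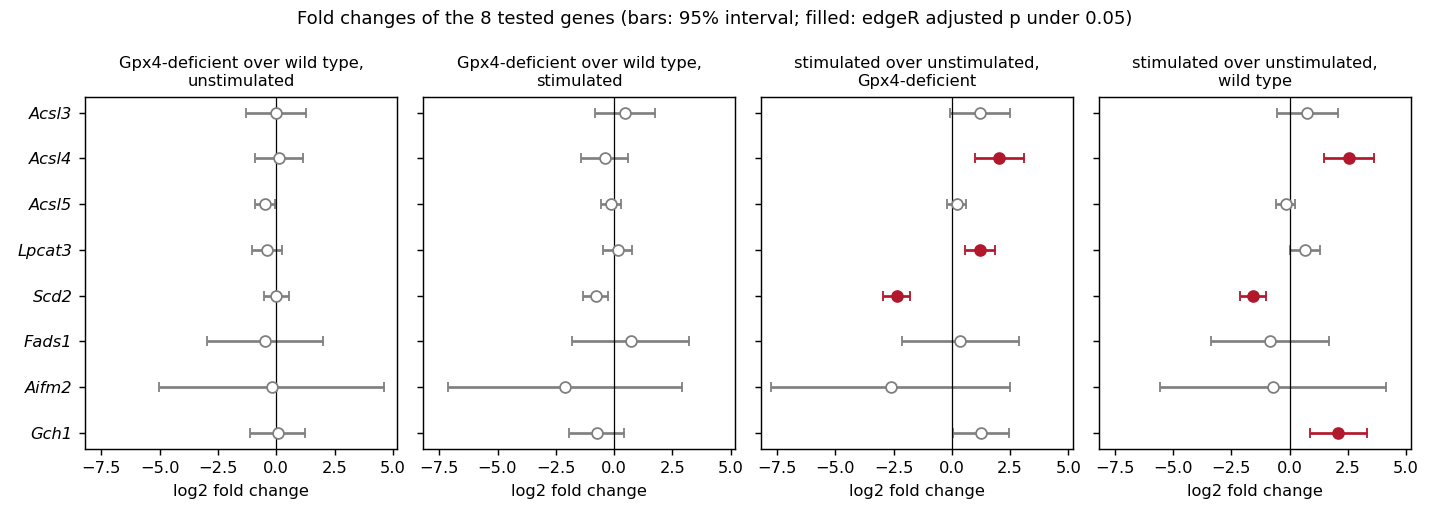
Log2 fold change of the 8 tested genes in 4 comparisons, with 95% intervals from the edgeR fit; filled points have an adjusted p under 0.05. Calls appear with stimulation only (Acsl4, Lpcat3 and Scd2 in Gpx4-deficient cells, Acsl4, Scd2 and Gch1 in wild-type cells), and the intervals of Aifm2 and Fads1 are the widest.

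By mean level per kilobase, Acsl5 led in all 4 groups. In single libraries, Lpcat3 was above Acsl5 in stimulated Gpx4-deficient replicate 2 (43.9 against 39.3 CPM per kilobase). Scd2 was above it in unstimulated Gpx4-deficient replicate 1 (31.1 against 30.3). In stimulated cells Acsl5 averaged 45.4 ± 6.33 CPM (Gpx4-deficient) and 49.3 ± 7.55 CPM (wild type). Lpcat3 averaged 30.1 ± 12.0 and 27.2 ± 3.86 there, and Acsl4 28.1 ± 13.9 and 37.0 ± 1.10. In unstimulated cells Acsl5 was followed by Scd2, at 39.7 ± 10.7 and 30.2 ± 2.56 CPM per kilobase in Gpx4-deficient cells and 55.4 ± 2.71 and 30.2 ± 1.51 in wild-type cells. For Acsl4, Lpcat3 and Scd2 both stimulated groups were separated from both unstimulated ones, except that Lpcat3 in stimulated Gpx4-deficient replicate 3 (72.0 CPM) was below unstimulated wild-type replicate 1 (73.7 CPM). Stimulated Gpx4-deficient and wild-type cells were themselves apart for Scd2 alone among these. For Acsl3, Acsl5, Fads1, Fads2, Aifm2 and Gch1 every pair of neighbours in the order overlapped.

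The other genes of these pathways were described from 8 lists with 109 genes, of which 88 were tested. With stimulation 13 of them (14.8%) were called in Gpx4-deficient cells, 6 higher and 7 lower, and 8 (9.09%) in wild-type cells, 5 higher and 3 lower. Against all tested genes (15.3% and 11.5%) these shares were close to the background. Between the genotypes, 1 of 88 (1.14%, against 2.27% of all tested genes) was called in stimulated cells, where 17 had an unadjusted p under 0.05, DESeq2 called 9 and limma-voom 1. In unstimulated cells 0 of 88 were called (against 0.0674% of all tested genes), 3 of them had an unadjusted p under 0.05, and neither DESeq2 nor limma-voom called any.

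Fatty acid synthesis and elongation genes held more of the stimulation calls than any other of the 8 lists, which differ in size. Of 14 tested, 4 rose and 1 fell in Gpx4-deficient cells (median log2 fold change 0.44, against -0.023 over all tested genes), and 3 rose and 1 fell in wild-type cells (0.89, against -0.035). Of all tested genes, 7.45% were called higher and 7.83% lower in Gpx4-deficient cells, and 6.12% and 5.41% in wild-type cells. Fasn, the fatty acid synthase, averaged 507 ± 43.6 CPM in stimulated and 250.3 ± 11.2 CPM in unstimulated Gpx4-deficient cells (log2 fold change 1.02, adjusted p = 0.000253), and 505 ± 81.3 and 223 ± 19.6 CPM in the wild-type states (1.18, adjusted p = 7.94e-05). Hacd3 and Hsd17b12, enzymes of the elongation cycle, rose by 1.80 and 1.14 in Gpx4-deficient cells (adjusted p = 0.000139 and 0.0195) and by 1.64 and 1.35 in wild-type cells (0.000267 and 0.00864). Elovl6, which lengthens palmitate, rose in Gpx4-deficient cells (2.53, adjusted p = 0.0150). In wild-type cells its states did not overlap either, as was so for 42% of all tested genes. It was not called there (1.47, adjusted p = 0.15). Tecr, the reductase that closes the elongation cycle, fell instead, with -1.28 in Gpx4-deficient cells (adjusted p = 7.39e-05) and -0.69 in wild-type cells (0.00576). Without unstimulated Gpx4-deficient replicate 1, the calls of Elovl6 and Hsd17b12 in Gpx4-deficient cells were lost (0.0577 and 0.0601), and that of Elovl6 also without replicate 3 (0.0502). With the 2 groups fitted alone both were lost as well (0.0595 and 0.0750). In stimulated cells none of the 14 was called between the genotypes by edgeR or limma-voom, and DESeq2 called 1. Tecr had the smallest p of the list (122 ± 22.6 CPM in Gpx4-deficient and 174 ± 6.56 CPM in wild-type cells, a log2 difference of -0.51 with adjusted p = 0.0824), and it was the gene DESeq2 called (0.0141). EdgeR called it without stimulated Gpx4-deficient replicate 3 (0.0290).

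Among 17 tested synthetases, acyltransferases and phospholipases, Agpat3 differed between the stimulated genotypes. Agpat3 adds polyunsaturated chains to lysophosphatidic acid. It averaged 183 ± 21.0 CPM in stimulated Gpx4-deficient and 309 ± 36.6 CPM in stimulated wild-type cells (log2 fold change -0.75, SE 0.15, adjusted p = 0.0230). Unstimulated cells averaged 175 ± 13 CPM (Gpx4-deficient) and 169.9 ± 20.5 CPM (wild type), so that Agpat3 rose with stimulation in wild-type cells (0.86, adjusted p = 0.00192) and had a log2 fold change of 0.07 in Gpx4-deficient cells (95% interval -0.25 to 0.38). The test of that difference in response gave -0.79 (SE 0.21, adjusted p = 0.244), which edgeR did not call and DESeq2 did (0.0164). The genotype call was lost without stimulated wild-type replicate 1 or 2 (0.0917 and 0.0892), with the replicate block (0.0621) and with those groups fitted alone (0.164). With stimulation Lpcat4 fell in Gpx4-deficient (-1.43, adjusted p = 0.000536) and wild-type cells (-0.94, 0.00835). The thioesterase gene Acot7 fell in both too (-1.06, 0.00373, and -1.09, 0.00338). Pnpla8, a phospholipase, rose in Gpx4-deficient cells (1.51, 0.00812) and was not called in wild-type cells (0.47, 0.442). In all, 1 of 17 rose and 2 fell in each genotype, with medians of -0.02 and 0.14. Of all tested genes 15.3% were called with stimulation in Gpx4-deficient and 11.5% in wild-type cells.

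Among regulators of lipid synthesis, 3 of 11 tested SREBP and LXR genes fell with stimulation in Gpx4-deficient cells (median -0.63). Of all tested genes 7.83% were called lower there (median -0.023). In wild-type cells 0 of 11 were called, against 11.5% of all tested genes (5.41% lower). The list median there was -0.02 (against -0.035 over all tested genes), with 0 at an unadjusted p under 0.05, 0 by DESeq2 and 1 by limma-voom. Srebf2, the SREBP gene of sterol synthesis, averaged 230 ± 37.4 CPM in stimulated and 399 ± 41.2 CPM in unstimulated Gpx4-deficient cells (-0.79, adjusted p = 0.00225). Mbtps1, a protease that releases SREBP, fell by 0.63 on the log2 scale (adjusted p = 0.0434), and that call was lost without any 1 of 10 of the libraries, with adjusted p up to 0.186 without unstimulated Gpx4-deficient replicate 1. Nr1h3, which encodes LXR-alpha, had 0 counts in all 3 stimulated Gpx4-deficient libraries and 48, 82 and 44 in the unstimulated ones, at least 62.2-fold lower when 3 counts in the whole group are taken as the floor. Its adjusted p was 0.0421 and was above the threshold without any 1 of 9 of the libraries (up to 0.0863), with the replicate block (0.0825) and without the filter (0.0545). Whether the 2 genotypes differed in this list was tested gene by gene through the interaction, which called 0 of 11 by edgeR, DESeq2 and limma-voom and gave 2 at an unadjusted p under 0.05. In stimulated cells Srebf2 had the smallest p between the genotypes, at 230 ± 37.4 CPM in Gpx4-deficient and 317 ± 18.3 CPM in wild-type cells (-0.46, adjusted p = 0.113). In that comparison 2 of the 11 had an unadjusted p under 0.05, limma-voom called 0, and DESeq2 called 1, Nr1h3 (adjusted p = 0.0316). Nr1h3 had 42, 0 and 1 counts in the stimulated wild-type libraries and 36, 93 and 212 in the unstimulated wild-type ones. Its log2 fold change with stimulation was thus negative in wild-type cells too (-2.91, SE 1.89). The states overlapped there, and edgeR did not call it (adjusted p = 0.431).

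Beside Gch1, 4 genes of tetrahydrobiopterin synthesis and recycling were tested, Pts, Spr, Qdpr and Pcbd2, and edgeR and limma-voom called 0 of them in any comparison. Spr, sepiapterin reductase, which completes the synthesis, had the smallest p between the stimulated genotypes, at 17.8 ± 2.25 CPM in Gpx4-deficient and 24.6 ± 4.74 CPM in wild-type cells (log2 fold change -0.47, SE 0.30, adjusted p = 0.441). Unstimulated cells averaged 33.7 ± 6 CPM (Gpx4-deficient) and 35.2 ± 0.532 CPM (wild type), and with stimulation the log2 fold change of Spr was -0.92 in Gpx4-deficient cells (adjusted p = 0.0582) and -0.52 in wild-type cells (adjusted p = 0.341). With stimulation 2 of the 4 had an unadjusted p under 0.05 in Gpx4-deficient cells and 1 in wild-type cells, and DESeq2 called 2 and 1. Between the genotypes DESeq2 called 0, and an unadjusted p under 0.05 was reached by 0 of the 4 in stimulated and 1 in unstimulated cells.

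For coenzyme Q, the substrate of FSP1, 13 genes of its synthesis or binding were listed, all tested. Coq8a, a kinase-like regulator of its synthesis, rose in Gpx4-deficient cells, to 124 ± 29.2 CPM with stimulation against 48.7 ± 8.66 CPM without (log2 fold change 1.35, adjusted p = 0.00726). In wild-type cells it averaged 207 ± 66.8 CPM and 37.7 ± 9.49 CPM in the same states (2.45, adjusted p = 0.000148). Between the stimulated genotypes the log2 fold change of Coq8a was -0.74 (adjusted p = 0.196). Of the 13 genes edgeR and limma-voom called 0 there, DESeq2 called 1 (Coq10a, 0.0385) and 3 had an unadjusted p under 0.05. A further list held genes tied to other ways of suppression, not all of them suppressors, and 11 were tested. Among these Dhcr7, the last enzyme of cholesterol synthesis and not itself a suppressor, fell with stimulation in Gpx4-deficient cells (5.10 ± 2.69 against 34.7 ± 13.7 CPM, -2.77, adjusted p = 0.00400). That call was lost with those 2 groups fitted alone (0.0583). In wild-type cells Dhcr7 had 16.5, 11.9 and 11 CPM with stimulation and 29.2, 45.1 and 46.5 CPM without. Those states did not overlap either, as was so for 42% of all tested genes in that comparison. DESeq2 called this fall (-1.64, adjusted p = 0.0086), and edgeR did not. Dhodh, which reduces coenzyme Q in mitochondria, had 2.08, 8.70 and 0.113 CPM in stimulated Gpx4-deficient and 41.0, 25.8 and 37.0 CPM in stimulated wild-type cells. These groups did not overlap, as was so for 20.1% of all tested genes in that comparison. Dhodh was not called there (log2 fold change -3.25, SE 0.97, adjusted p = 0.113). DESeq2 called it (0.00429), as did edgeR without stimulated Gpx4-deficient replicate 2 (0.0203) or 3 (0.0469). Unstimulated cells had 15.1, 29.3 and 39.1 CPM (Gpx4-deficient) and 42.1, 42.3 and 53.1 CPM (wild type). The genotypes did not overlap there either (18.3% of all tested genes), and Dhodh was not called (-0.72). With stimulation in Gpx4-deficient cells edgeR did not call Dhodh (-2.93, adjusted p = 0.0605) and DESeq2 did (0.00456).

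Neither lipid oxidation nor ether lipid genes were called in any of the 4 comparisons by edgeR or limma-voom (9 tested in each). Between the stimulated genotypes, Pebp1, which binds lipoxygenases, had the smallest p of the oxidation genes, at 107 ± 37.9 CPM in Gpx4-deficient and 199.7 ± 7.57 CPM in wild-type cells (-0.89, adjusted p = 0.109). Pex7, the import receptor for an ether lipid enzyme, stood at 12.9 ± 0.721 and 31.3 ± 2.75 CPM (-1.28, adjusted p = 0.161). At an unadjusted p under 0.05 there were 3 oxidation genes and 1 ether lipid gene in that comparison, and DESeq2 called 3 and 1, Pebp1 (0.0225) and Pex7 (0.0406) among them. With stimulation 1 oxidation gene and 0 ether lipid genes had an unadjusted p under 0.05 in Gpx4-deficient cells (DESeq2 called 0 and 0), and 2 and 1 in wild-type cells (DESeq2 called 1 and 1). In unstimulated cells both counts were 0 between the genotypes, by DESeq2 as well.

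**Figure D5:**
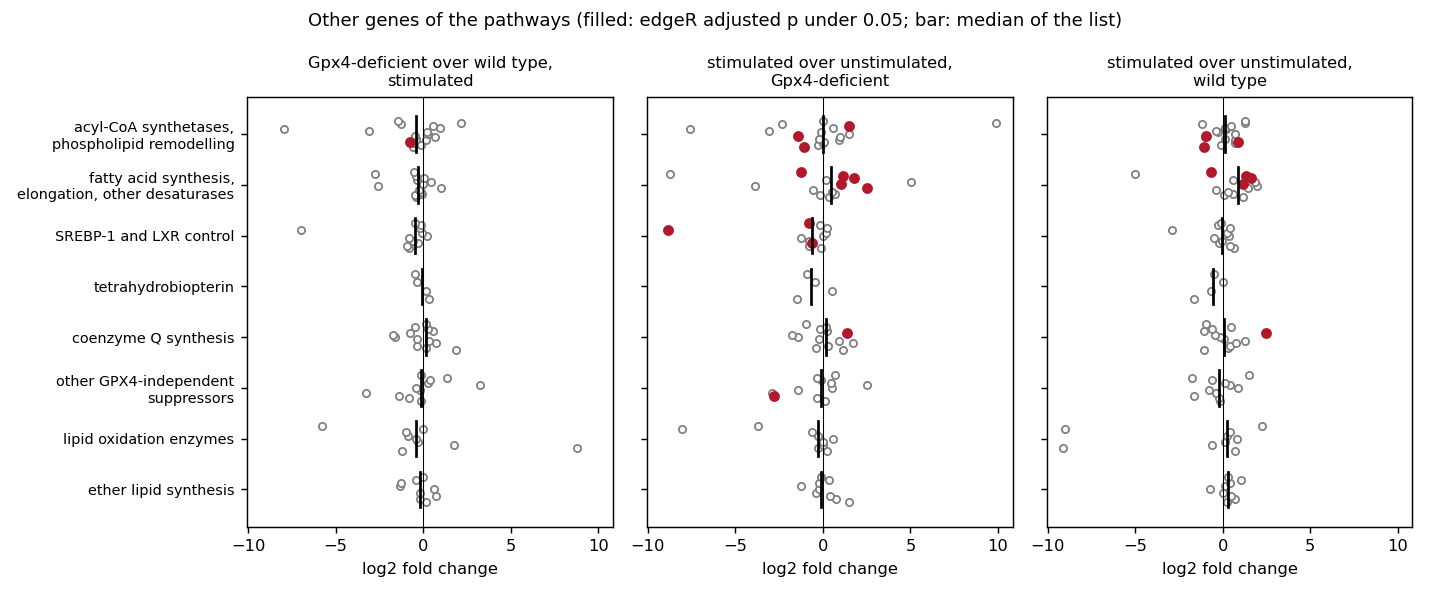
Log2 fold change of each tested gene of the 8 pathway lists in stimulated Gpx4-deficient over wild-type cells and in stimulated over unstimulated cells of each genotype; filled points have an adjusted p under 0.05 and vertical bars are list medians. The left panel has 1 filled point (Agpat3), the middle one 13 and the right one 8.

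The genes most like the called members over the 12 libraries were found by the root mean square difference of centred log2 CPM, among 8502 other genes. For Acsl4 they were Rbpj, Nfkbid and Plscr1 (0.41, 0.42 and 0.44, where the median gene was at 1.42). For Scd2 they were Ptpn18, Prex1 and Csk (0.25, 0.28 and 0.29, median 1.23). Lpcat3 was nearest to Slc7a6, Ddx3y and Atp11b (0.17, 0.23 and 0.24, median 0.76), and Gch1 to Rrs1, Ddx31 and Slc16a1 (0.46, 0.47 and 0.48, median 1.19). Rbpj, for example, averaged 288 and 382 CPM in stimulated Gpx4-deficient and wild-type cells and 70.3 and 73.8 CPM in the unstimulated ones. Of the 10 members, 5 lie on chromosome 19.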

How the data were processed

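RNA of 12 libraries was analysed from one gene-level table, with each column matched to its sample by the library name in the labels. The authors deposited RSEM expected counts, and between 14.8% and 18.1% of a library's values were not whole. Per the submitters' processing notes the genome build was GRCm38. The aligner is not given in the sources used here. Expected counts were rounded and tested with edgeR 4.0.16 (R 4.3.3; quasi-likelihood, robust, TMM, filterByExpr) in a single model with a mean for each of the 4 groups. That left 14827 genes. SE and 95% intervals were derived from the F statistic, and the script was tested on simulated data. Alternatives were DESeq2 1.42.0, limma-voom (limma 3.58.1), RLE factors, scaling without mitochondrial genes, no filter, single comparisons, a replicate block and each library left out. CPM use TMM-scaled library sizes. Exonic lengths and coordinates come from GENCODE M21. Named genes are the 10 members, with called genes of the pathway lists (up to 4 in order of adjusted p, otherwise the smallest p between the stimulated genotypes) and the 3 most alike. One listed gene is not reported here and was left out of the list counts. The members and lists were chosen with earlier results of these data known. The library numbers of the 2 genotypes do not interleave, and within each genotype those of the 2 states do not either. An effect of genotype or of stimulation and one of preparation therefore cannot be told apart. The titles reuse the replicate numbers in both states of each genotype. In 18 same-numbered pairs the deviations from group means correlated between -0.062 and 0.03, with 0 over 0.1. These include pairs across the genotypes, which cannot share an animal. Within a genotype the correlations ran from -0.022 to 0.03, so replicate numbers were not treated as pairs. Promoter windows are those of RefSeq for GRCm38.p6.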

Additional observations from a re-analysis of the deposited data

Results flagged for a closer look

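Coq10a, a coenzyme Q binding protein gene, was singled out because its stimulated libraries were all above the unstimulated ones in Gpx4-deficient cells (log2 fold change 1.16) and all below them in wild-type cells (-1.07). Separation in either direction held for 29.8% of all tested genes in Gpx4-deficient and 42% in wild-type cells. Coq10a levels were low, at 8.83 ± 2.97 and 2.42 ± 1.15 CPM in stimulated Gpx4-deficient and wild-type cells and 3.94 ± 1.49 and 5.10 ± 1.26 CPM in the unstimulated ones (SD, n = 3 each). The difference of 2.24 in response was not called by the interaction test (SE 1.16, adjusted p = 0.623). Between the stimulated genotypes DESeq2 called Coq10a (1.90, adjusted p = 0.0385) and edgeR did not (1.87, 0.264).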

How the results depend on the processing

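Under the alternatives tried, of 28 called results for members and listed genes 19 kept their call throughout and 9 lost it somewhere, as given with the genes. With stimulation in wild-type cells 2 of the 3 member calls were left without any 1 wild-type library. Between the genotypes in stimulated cells DESeq2 called 1 member, against 0, and single libraries left out gave 0 to 1. With stimulation in Gpx4-deficient cells leaving out single libraries gave 1 to 4 members, against 3. With stimulated replicate 3 and unstimulated replicate 1 of Gpx4-deficient cells left out together, chosen after seeing the data, 4 were called, and with only the compared groups 2.

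Over all genes, 10 calls between the unstimulated genotypes became 183 (DESeq2), 21 (limma-voom) and 3 (replicate block), and 3 to 14 without single libraries. The 337 between the stimulated genotypes became 1564 (DESeq2), 171 (replicate block) and 22 (compared groups only), and 117 to 658 without single libraries. With stimulation, 2266 in Gpx4-deficient cells became 3609 (DESeq2) and 1022 (compared groups only), and 1709 in wild-type cells became 2639 and 3499. The 30 differences in response became 380 (DESeq2), 0 (limma-voom), 5 (replicate block) and 57 (both libraries out), and 2 to 167 without single libraries. The cause was not tested.

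Among the results recomputed, only those of members changed sign, each in a comparison where the main edgeR fit had not called that member. With limma-voom, Gch1 was -0.03 between the unstimulated genotypes, and Fads1 was -1.70 between the stimulated genotypes, -2.15 with stimulation in Gpx4-deficient cells and -1.24 for the difference in response. With the replicate block, Acsl3 was -0.05 and Gch1 -0.14 between the unstimulated genotypes. With both libraries out, the unstimulated genotypes gave Acsl3 -0.13, Acsl4 -0.13, Scd2 -0.03, Aifm2 0.37 and Gch1 -0.50. The stimulated genotypes gave Acsl3 -0.27 and Fads1 -0.62, stimulation in Gpx4-deficient cells Acsl5 0 and Fads1 -0.70, and the difference in response Acsl3 -0.13 and Gch1 0.16.

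Without single libraries, the unstimulated genotype difference ran from -1.09 to 1.12 (Aifm2), -0.48 to 0.41 (Gch1), -0.21 to 0.89 (Acsl4), -0.10 to 0.11 (Acsl3) and -0.02 to 0.11 (Scd2). The stimulated one ran from -0.23 to 0.01 (Acsl5), -0.18 to 0.34 (Lpcat3), -0.30 to 0.93 (Acsl3) and -0.66 to 1.34 (Fads1). Stimulation ran from -1.02 to 0.95 for Fads1 in Gpx4-deficient and from -1.89 to 0.59 for Aifm2 in wild-type cells, and the difference in response from -0.31 to 0.89 (Acsl3) and -0.18 to 1.80 (Fads1).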
